A study of Mus musculus with 24 samples.

Results

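The 32 genes described here encode the machinery of sterol and fatty acid synthesis and its control. They were chosen by name as genes of the pathway, with earlier results of these data known. By role they comprise 5 genes that control the transcription factors called SREBPs, 7 of the mevalonate part of the pathway, 11 that lead on to cholesterol, 1 sterol carrier gene and 8 of fatty acid synthesis and desaturation. All 32 were among the 15390 genes of the deposited table, and all 32 were among the 13272 genes kept for testing, whose log2 value was 0 or more in 4 or more libraries. Of those 32, 17 were lower after 6 h of the cytokine TNF in the mean over both genotypes and none was higher, where 13.5% of all genes kept were called lower and 9.28% higher. The falls were between 0.21 and 0.66 on the log2 scale. Srebf1 and Srebf2, the genes of the SREBPs themselves, were not among the 17.

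SREBPs are made as membrane proteins of the endoplasmic reticulum. When sterols are plentiful they are held there by the escort protein Scap and its anchors Insig1 and Insig2, and when sterols run short Scap carries them to the Golgi, where proteases release the part that enters the nucleus. There it switches on genes of cholesterol and fatty acid synthesis, and also Insig1, so that the message of Insig1 is a commonly used readout of the system. Growing cells use the products for membranes and, through the mevalonate part, for isoprenoid lipids that anchor proteins.

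The cells were MC38, a mouse colon carcinoma line, grown in DMEM with fetal calf serum and antibiotics. Cells with genotype Ado KO carried Ado gRNA 1 or Ado gRNA 2, and control cells carried Control gRNA 1 or Control gRNA 2. The Ado enzyme adds oxygen to the thiol of cysteamine and of N-terminal cysteines in some proteins. Each of these 4 guide populations was left untreated or exposed to TNF for 1 h or 6 h, with 2 libraries each, which gives 4 libraries for every pairing of genotype and time, 6 groups in all. Library 2-1 denotes guide 2, replicate 1. The labels give no dose of TNF and do not say whether a guide population was a clone or a pool, or whether replicates were separate cultures. The p-values therefore rest on library-to-library spread, part or all of which may be technical. Nor do the labels say whether untreated cells were kept for the same 6 h. An effect of TNF and one of time in culture or handling therefore cannot be told apart.

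The spacing of low values puts the libraries at 4260000 to 6630000 tags each. Ado itself averaged 5.35 log2 CPM (tags scaled to a common total, CPM) in untreated Ado KO cells and 5.26 log2 CPM in untreated control cells. A tag at the 3' end need not read the guide's target site, so this level checks neither the edit nor the labels. TNF reached the cells by the readout of 6 known targets such as Nfkbia, which all rose at 6 h in both genotypes. Epithelial markers, which a carcinoma line could show, were near the floor: 4 of 12 epithelial markers were in the table and 1 passed the filter, and their summed level was 1 to 3.19 CPM in untreated Ado KO libraries and 1.5 to 3.19 CPM in untreated control libraries. Krt18 stood at the lowest value of the table in all 4 untreated Ado KO libraries. Of 10 immune markers 7 were in the table and 5 passed the filter. The 7 summed to 13.5 to 34.3 CPM in untreated Ado KO libraries and 12.3 to 17.3 CPM in untreated control libraries. Ptprc ranged from 0.87 to 3.75 log2 CPM and Nkg7 from -0.13 to 3.60 log2 CPM in untreated Ado KO libraries. They had the widest ranges of the 7 there, and Itgam the narrowest, 1.81 to 1.88 log2 CPM. Such spread was not particular to Ado KO cells. In untreated control libraries Nkg7 ranged from -1.7 to 1.74 log2 CPM, and Ptprc varied too, with a lowest value of -0.06 log2 CPM. None of 8 markers of adipocytes and hepatocytes, tissues with high lipid synthesis, was in the table. In bulk RNA fewer cells of a kind and less RNA per cell cannot be told apart.

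Promoters are shown for 3 genes that fell at 6 h in both genotypes and had an entry in the promoter table, and for Hmgcs1, the member whose promoter holds the sterol regulatory element searched here. They were taken from RefSeq on build GRCm38.p6 and run 5′ to 3′ in the direction of the gene, from 250 bases before the RefSeq start up to the start; that of Insig1 ends 49 bases earlier because the GENCODE gene begins there. Capitals mark the CCAAT box (CCAAT on either strand, read as ATTGG on the other), the E-box (CACGTG) and the core of the sterol regulatory element (TCACNCCAC, either strand). The CCAAT box is bound by the factor NF-Y, and the E-box and the sterol regulatory element can both be bound by SREBPs. The Insig1 window is chr5:28071162-28071362, plus strand, that of Mvd chr8:122443423-122443672, minus strand, that of Ebp chrX:8193513-8193762, minus strand, and that of Hmgcs1 chr13:119690101-119690350, plus strand.
Insig1: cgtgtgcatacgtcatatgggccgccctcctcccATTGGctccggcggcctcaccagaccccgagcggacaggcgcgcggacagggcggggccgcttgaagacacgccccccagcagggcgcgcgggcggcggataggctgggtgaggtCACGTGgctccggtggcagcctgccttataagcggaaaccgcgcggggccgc
Mvd: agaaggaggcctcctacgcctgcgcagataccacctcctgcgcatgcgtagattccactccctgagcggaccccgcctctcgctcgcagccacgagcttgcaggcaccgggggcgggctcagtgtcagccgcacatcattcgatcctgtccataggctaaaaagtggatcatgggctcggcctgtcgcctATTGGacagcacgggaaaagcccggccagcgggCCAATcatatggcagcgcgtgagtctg
Ebp: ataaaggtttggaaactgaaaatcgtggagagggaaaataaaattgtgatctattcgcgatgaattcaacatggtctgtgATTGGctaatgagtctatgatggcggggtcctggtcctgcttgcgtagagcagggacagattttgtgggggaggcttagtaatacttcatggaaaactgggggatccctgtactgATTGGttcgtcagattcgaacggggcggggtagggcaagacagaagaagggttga
Hmgcs1: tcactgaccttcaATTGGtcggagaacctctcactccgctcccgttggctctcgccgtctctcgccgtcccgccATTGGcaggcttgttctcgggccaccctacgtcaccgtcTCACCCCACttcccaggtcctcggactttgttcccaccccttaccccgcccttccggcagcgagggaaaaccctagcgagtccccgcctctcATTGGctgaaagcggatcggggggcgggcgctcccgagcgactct

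The table held promoters for 25 of the 32 genes. A CCAAT box lay within 250 bases before the start in 19 of those 25, against 37.49% of the 27025 genes of the table. The E-box was found in 5 of the 25, namely Scap, Insig1, Hsd17b7, Sc5d and Dhcr7, against 6.86% of all genes. The sterol element matched in 1 of the 25, Hmgcs1, where it began at -137 from the start; 1.22% of all genes had a match. These matches describe letters in a short window, and a gene without a match is not thereby a gene without a site. Fdps, Fdft1, Sqle, Stard4, Scd1, Scd2 and Fads1 had no entry. The promoter table is not limited to the genes kept for testing, and a gene counted where any of its promoters matched. By promoter, 20 of 33 member promoters held a CCAAT box, against 33.85% of all 32851.

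After 6 h of TNF, 8 of the 32 genes were lower in Ado KO cells and none was higher, at a Benjamini-Hochberg adjusted p under 0.05 by limma over all genes kept. The background was 2.02% of all genes called lower and 4.42% called higher. In control cells 14 of the 32 were lower and none higher, where 10.3% of all genes were called lower and 7.74% higher. Among the 8913 genes whose mean level lay in the range of the members, 2.57% were called lower in Ado KO cells and 12.3% in control cells. For the mean of both genotypes, 17 members were lower, against 13.5% of all genes and 16% of genes in that range, and 9.28% of all genes were higher. Leaving out 1 library lowered the Ado KO count to 4 (untreated 2-1) or 5 (6 h 1-2), and the control count to 8 (untreated 1-1, untreated 1-2 or 6 h 2-2) or 9 (6 h 2-1). The count for the mean of both was 11 without 6 h Ado KO library 1-2, 9 without the population of control guide 1 and 10 without that of Ado guide 1. Of all genes, 866 were called lower for that mean without control guide 1 and 858 without Ado guide 1, against 1794 with all libraries. The median difference of the members was -0.16 in Ado KO cells, where that of all genes was -0.05, and -0.20 in control cells, where that of all genes was -0.09.

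The 6 genes called lower in both genotypes were Insig1, Mvd, Ebp, Scd1, Scd2 and Fads1. They made up 75% of the 8 called in Ado KO cells and 42.9% of the 14 called in control cells. The share of all genes called lower in both genotypes is not given here, so this overlap cannot be read as particular to the members. Nsdhl and Stard4 were called in Ado KO cells and not in control cells; Acat2, Mvk, Pmvk, Fdps, Fdft1, Sqle, Lss and Acaca were called in control cells and not in Ado KO cells. Cyp51 and Tm7sf2 were called for the mean alone. The other 14 were called in none of these, and a test of the difference between genotypes called no member, as given below. With 1 library left out, the call for the mean ended in 12 of 16 fits for Nsdhl, 8 for Sqle and 6 for Mvk. It ended in 4 each for Lss, Tm7sf2 and Stard4, in 3 for Pmvk and in 0 for the rest of the 17.

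**Figure D1:**
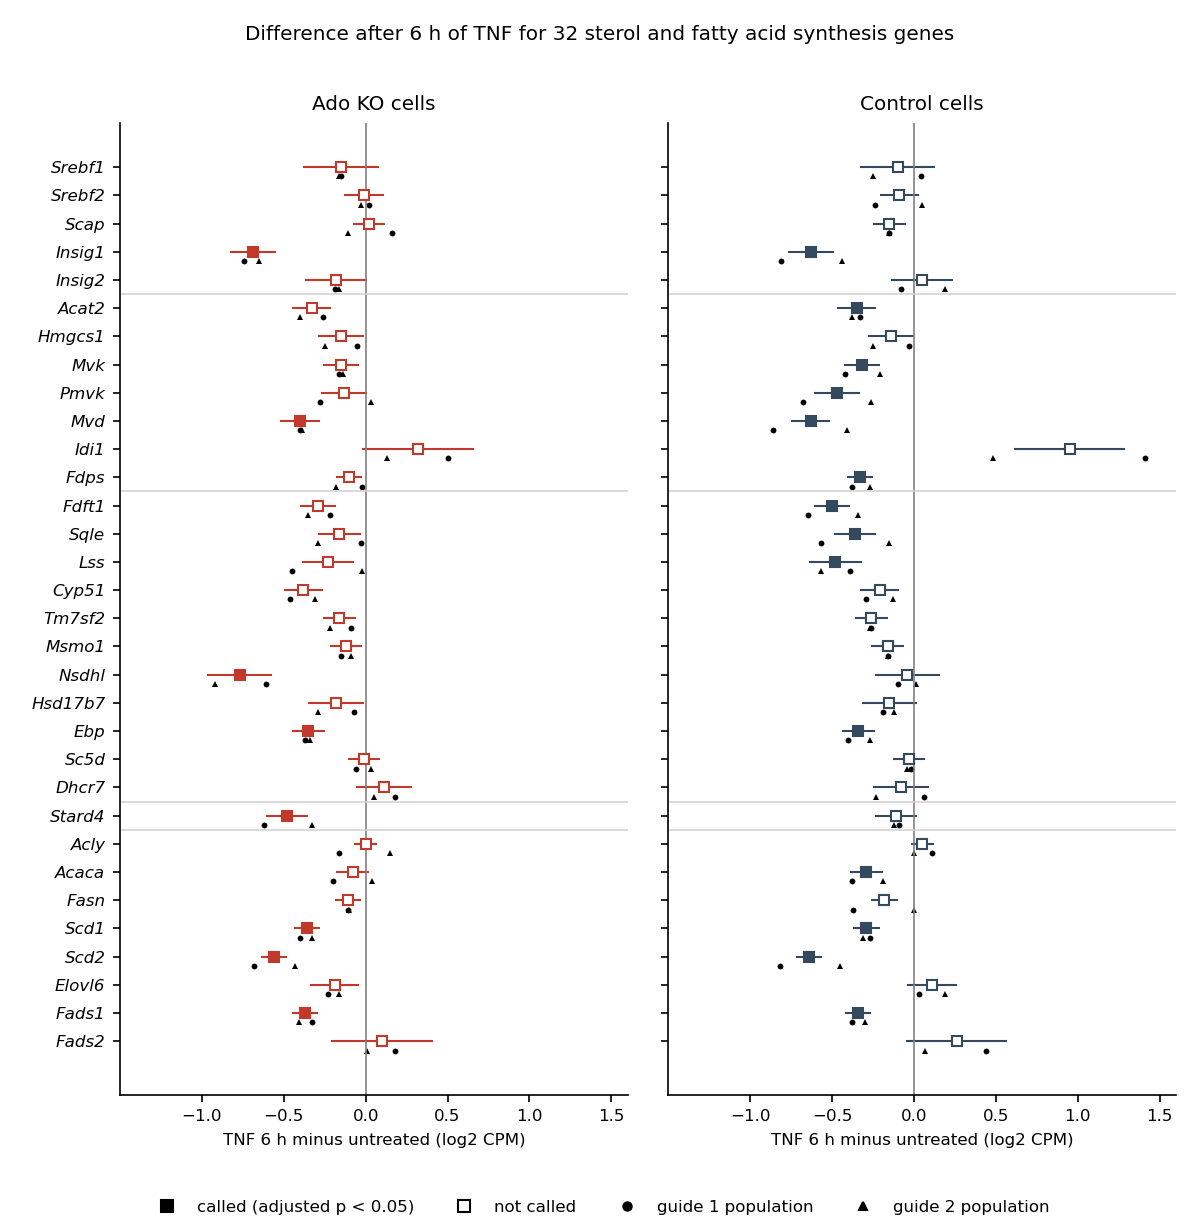
Difference between 6 h of TNF and untreated (log2 CPM, horizontal axis) for the 32 genes, by role from top to bottom, in Ado KO cells (left) and control cells (right). Squares give the fitted difference with its SE, filled where called; small circles and triangles give the populations of guide 1 and guide 2. Insig1, Mvd, Ebp, Scd1, Scd2 and Fads1 are filled in both panels, and 28 squares in Ado KO cells and 27 in control cells lie below 0.

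Among the control genes of the SREBP system Insig1 moved and the others did not pass the test. Insig1 encodes the sterol-sensing anchor of Scap and lies on chromosome 5 at 28071363 to 28078662, plus strand (GENCODE, GRCm38). At 6 h its levels were 4.72, 4.65, 4.62 and 4.66 log2 CPM in Ado KO libraries 1-1, 1-2, 2-1 and 2-2, against 5.64, 5.20, 5.31 and 5.27 log2 CPM in untreated Ado KO libraries. The 4 libraries at 6 h lay close together, with an SD of 0.04, and below all 4 untreated ones. Control libraries at 6 h had 4.96, 4.72, 4.69 and 4.82 log2 CPM, against 5.68, 5.63, 5.28 and 5.12 log2 CPM in untreated control libraries. Again no library of 1 group reached those of the other. The difference was -0.69 ± 0.14 in Ado KO cells (SE; limma adjusted p = 6.2e-04) and -0.63 ± 0.14 in control cells (SE; limma adjusted p = 0.00128).

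Srebf2, which encodes the SREBP that mainly drives sterol genes, averaged 6.68 ± 0.17 log2 CPM at 6 h and 6.69 ± 0.14 untreated in Ado KO cells (SD, n = 4). In control cells it averaged 6.68 ± 0.06 log2 CPM at 6 h and 6.77 ± 0.20 untreated (SD, n = 4). The 95% interval of the difference was -0.25 to 0.23 in Ado KO cells and -0.33 to 0.15 in control cells, and the fitted difference of Insig1 lies below both. Srebf1, the SREBP gene more tied to fatty acid synthesis, had 5.06, 5.21, 5.07 and 4.97 log2 CPM at 6 h in Ado KO libraries, against 5.35, 5.22, 5.17 and 5.19 untreated. In control libraries Srebf1 stood at 5.24, 5.19, 5.23 and 5.04 log2 CPM at 6 h, against 5.09, 5.27, 5.31 and 5.46 untreated. Differences of Srebf1 were -0.15 ± 0.23 and -0.10 ± 0.23 in Ado KO and control cells (SE), with limma adjusted p of 0.808 and 0.796. Scap, the escort, differed by 0.02 ± 0.10 in Ado KO cells and -0.15 ± 0.10 in control cells (SE). Insig2, the second anchor, differed by -0.18 ± 0.19 and 0.05 ± 0.19 (SE), at a low level of 2.51 to 3.55 log2 CPM over all 24 libraries.

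**Figure D2:**
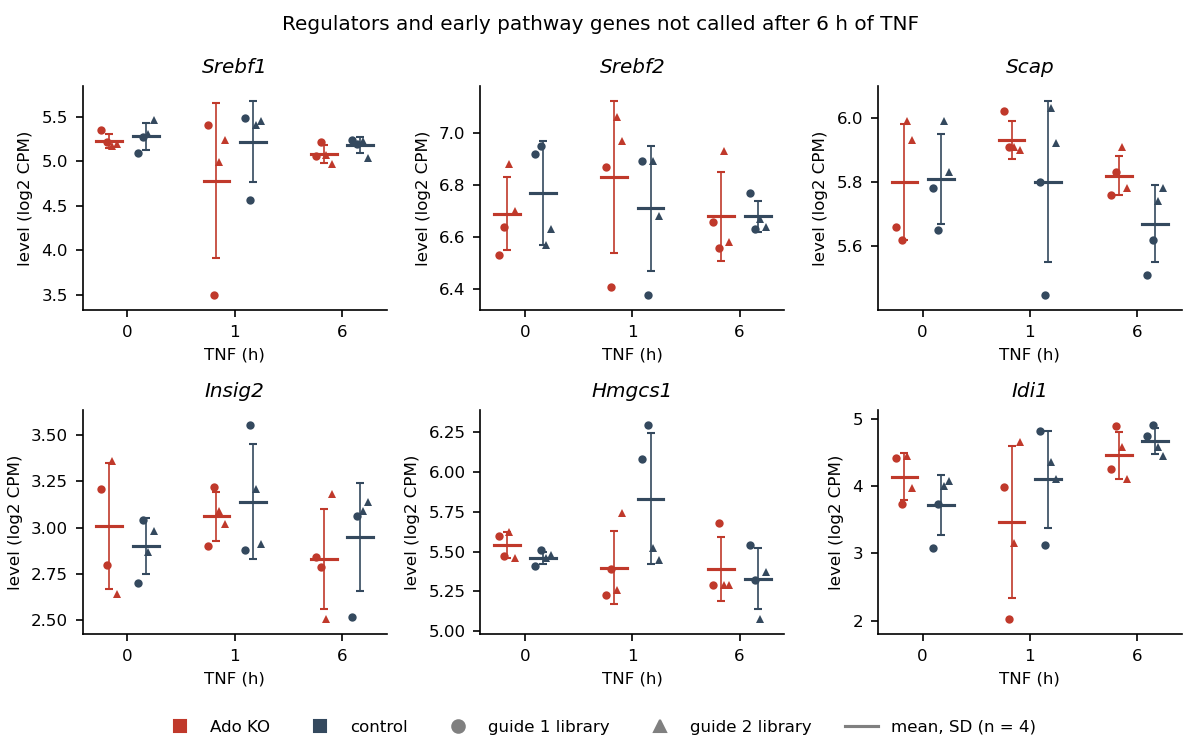
Levels (log2 CPM) of Srebf1, Srebf2, Scap, Insig2, Hmgcs1 and Idi1 against hours of TNF (0, 1 and 6) in Ado KO cells (red, left of each pair) and control cells (blue). Points are libraries (circles guide 1, triangles guide 2), lines the mean with its SD over 4 libraries. Srebf2 averaged 6.68 log2 CPM at 6 h in both genotypes; at 1 h Srebf1 was 3.50 and Idi1 2.03 in Ado KO library 1-2.

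In the mevalonate part, which turns acetyl-CoA into the isoprenoid farnesyl diphosphate, Mvd was lower at 6 h in both genotypes. Mvd encodes mevalonate diphosphate decarboxylase and lies on chromosome 8 at 122433601 to 122443422, minus strand. Ado KO libraries had 5.62, 5.38, 5.62 and 5.58 log2 CPM at 6 h, against 5.96, 5.84, 6.24 and 5.74 untreated. Control libraries had 5.56, 5.48, 5.33 and 5.65 log2 CPM at 6 h, against 6.46, 6.29, 5.90 and 5.88 untreated. Neither genotype had overlap between its groups, and among untreated libraries those of control guide 1 were the highest. The difference was -0.40 ± 0.12 in Ado KO cells (SE; limma adjusted p = 0.0338) and -0.63 ± 0.12 in control cells (SE; limma adjusted p = 1.9e-04). The Ado KO call of Mvd ended when untreated library 1-1 or 2-1, or 6 h library 1-2, 2-1 or 2-2, was left out, with differences of -0.39, -0.30, -0.34, -0.42 and -0.40.

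Acat2, which encodes the thiolase that joins acetyl-CoA units, had 5.18, 5.21, 4.93 and 5.18 log2 CPM at 6 h in Ado KO libraries, against 5.25, 5.66, 5.46 and 5.45 untreated. In control libraries it had 5.35, 5.39, 5.21 and 5.01 log2 CPM at 6 h, against 5.67, 5.72, 5.44 and 5.53 untreated. The groups did not overlap in either genotype, and the differences were alike: -0.33 ± 0.12 in Ado KO cells (SE; limma adjusted p = 0.0916, not called) and -0.35 ± 0.12 in control cells (SE; limma adjusted p = 0.0323). Pmvk, the phosphomevalonate kinase gene, had 4.91, 4.39, 5.04 and 4.66 log2 CPM at 6 h in Ado KO libraries, against 4.99, 4.88, 4.94 and 4.71 untreated, which overlap. Its control libraries had 4.82, 4.77, 4.72 and 4.64 log2 CPM at 6 h, against 5.51, 5.45, 5.02 and 4.86 untreated, without overlap. The control difference of Pmvk was -0.47 ± 0.14 (SE; limma adjusted p = 0.015), of which guide 1 gave -0.68 and guide 2 -0.26. Fdps, farnesyl diphosphate synthase, had 6.69, 6.76, 6.58 and 6.52 log2 CPM at 6 h in Ado KO libraries, against 6.69, 6.81, 6.76 and 6.69 untreated. Its control libraries had 6.76, 6.85, 6.67 and 6.67 log2 CPM at 6 h, against 7.19, 7.18, 6.93 and 6.95 untreated. Fdps fell in control cells by 0.33 ± 0.08 (SE; limma adjusted p = 0.00554), and the difference in Ado KO cells was -0.10 ± 0.08 (SE).

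Mvk, mevalonate kinase, fell by 0.32 ± 0.11 in control cells (SE; limma adjusted p = 0.0467), and its difference in Ado KO cells was -0.15 ± 0.11 (SE). Hmgcs1, the synthase that makes HMG-CoA, was not called at 6 h, at -0.15 ± 0.14 in Ado KO cells and -0.14 ± 0.14 in control cells (SE). Idi1, isopentenyl diphosphate isomerase, was the member with the highest difference in both genotypes. It had 4.26, 4.89, 4.58 and 4.11 log2 CPM at 6 h in Ado KO libraries, against 4.42, 3.73, 4.45 and 3.97 untreated. In control libraries Idi1 had 4.74, 4.90, 4.58 and 4.45 log2 CPM at 6 h, against 3.08, 3.73, 4.00 and 4.07 untreated, without overlap. Its difference was 0.32 ± 0.34 in Ado KO cells (SE; limma adjusted p = 0.711) and 0.95 ± 0.34 in control cells (SE; limma adjusted p = 0.054), and so it was not called. With a pseudocount of 1, or with structural RNA and other classes of genes left out by name (given below), the control difference was 0.89 and 0.98. It was called in both (limma adjusted p = 0.0447 and 0.0493). The last 400 transcript bases of Idi1 matched the pseudogene Gm13502 of the table at 100% over 284 bases, those of Fdps matched Gm3571, Gm5873 and Gm8163 at 96% to 99%, and those of Acat2 matched Tcp1 and Acat3 at 98.024% over 253 bases, so their tags may have been shared.

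The control calls of Acat2, Pmvk and Mvk were sensitive to single libraries. Acat2 was no longer called without untreated control library 1-1, 1-2 or 2-2 (-0.33, -0.32 and -0.36) or without 6 h control library 2-1 or 2-2 (-0.35 and -0.28). Pmvk was no longer called without untreated control library 1-1 or 1-2 (-0.38 and -0.40). Mvk kept its call without untreated control library 2-2 alone; the other 7 omissions ended it, with differences of -0.35 to -0.22.

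From squalene to cholesterol, Ebp was lower at 6 h in both genotypes. Ebp encodes the sterol isomerase that moves a ring double bond late in the pathway and lies on chromosome X at 8185329 to 8193512, minus strand. Ado KO libraries had 5.11, 5.24, 5.37 and 5.30 log2 CPM at 6 h, against 5.59, 5.49, 5.70 and 5.66 untreated. Control libraries had 5.43, 5.33, 5.72 and 5.25 log2 CPM at 6 h, against 5.80, 5.76, 5.74 and 5.77 untreated. Neither genotype showed overlap, though control library 2-1 at 6 h, at 5.72, came close to the lowest untreated one, at 5.74. The difference was -0.35 ± 0.10 in Ado KO cells (SE; limma adjusted p = 0.0179) and -0.34 ± 0.10 in control cells (SE; limma adjusted p = 0.014). The Ado KO call of Ebp ended without untreated library 2-1 or 2-2 (-0.33 and -0.34) or 6 h library 1-1 (-0.31), and the control call without 6 h library 1-2 or 2-2 (-0.30 and -0.27).

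Fdft1, squalene synthase, had 5.48, 5.39, 5.32 and 5.17 log2 CPM at 6 h in Ado KO libraries, against 5.66, 5.65, 5.71 and 5.48 untreated, groups that meet at 5.48. Its control libraries had 5.04, 5.43, 5.28 and 5.25 log2 CPM at 6 h, against 5.82, 5.96, 5.71 and 5.51 untreated. Fdft1 fell in control cells by 0.50 ± 0.11 (SE; limma adjusted p = 0.00126), and its difference in Ado KO cells was -0.29 ± 0.11 (SE; limma adjusted p = 0.121). Its last 400 bases overlap Ctsb on the opposite strand, and those of Cyp51 overlap Akap9 on the opposite strand by 166 bases. Whether counting used strand is not given in the sources used here. Cyp51, lanosterol demethylase, had 6.46, 6.42, 6.46 and 6.23 log2 CPM at 6 h in Ado KO libraries, against 6.93, 6.87, 6.70 and 6.61 untreated, without overlap. In control libraries Cyp51 had 6.62, 6.49, 6.24 and 6.44 log2 CPM at 6 h, against 6.84, 6.86, 6.50 and 6.44 untreated. The difference of -0.38 ± 0.12 in Ado KO cells (SE; limma adjusted p = 0.0545) and that of -0.21 ± 0.12 in control cells (SE; limma adjusted p = 0.241) were not called alone; the mean of both, -0.30 ± 0.09, was (SE; limma adjusted p = 0.0119).

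Nsdhl encodes a dehydrogenase of the demethylation at sterol carbon 4, and was called in Ado KO cells. It had 2.76, 2.19, 2.13 and 2.31 log2 CPM at 6 h in Ado KO libraries, against 3.16, 3.01, 3.19 and 3.09 untreated. Control libraries had 3.11, 3.43, 2.76 and 3.33 log2 CPM at 6 h, against 3.58, 3.15, 2.87 and 3.18 untreated, which overlap. The difference was -0.77 ± 0.20 in Ado KO cells (SE; limma adjusted p = 0.0168) and -0.04 ± 0.20 in control cells (SE; limma adjusted p = 0.913). These levels rest on an estimated 22 to 73 tags per library. The call ended without untreated Ado KO library 2-1 (-0.74) or 6 h library 1-2 or 2-1 (-0.71 and -0.69). Stard4, a soluble protein that moves sterol between membranes, had 4.19, 4.18, 4.41 and 4.54 log2 CPM at 6 h in Ado KO libraries, against 4.92, 4.69, 4.83 and 4.79 untreated, without overlap. Its control libraries had 4.85, 4.28, 4.58 and 4.12 log2 CPM at 6 h, against 4.68, 4.64, 4.43 and 4.51 untreated. Stard4 fell in Ado KO cells by 0.48 ± 0.13 (SE; limma adjusted p = 0.0233) and differed by -0.11 ± 0.13 in control cells (SE; limma adjusted p = 0.63). That call ended without untreated Ado KO library 1-1 or 2-1 (-0.43 and -0.47) or 6 h library 1-1 or 1-2 (-0.44 and -0.43).

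The epoxidase gene Sqle fell by 0.36 and the cyclase gene Lss by 0.48 in control cells (limma adjusted p = 0.0489 and 0.0389), with differences of -0.16 and -0.23 in Ado KO cells. Leaving out 1 library ended each of these calls in 5 of 8 cases: for Sqle untreated control 1-1 or 1-2 (-0.29 and -0.27) and 6 h control 1-1, 1-2 or 2-2 (-0.33, -0.41 and -0.29), for Lss untreated control 1-1, 1-2 or 2-1 (-0.42, -0.47 and -0.50) and 6 h control 2-1 or 2-2 (-0.44 and -0.38). Tm7sf2, a sterol reductase gene, differed by -0.16 in Ado KO cells and -0.26 in control cells and was called for the mean (limma adjusted p = 0.0279). That call ended without untreated control library 2-2 (-0.18), 6 h control library 1-1 (-0.20), untreated Ado KO library 2-1 (-0.16) or 6 h Ado KO library 1-2 (-0.19). Its last 400 bases share 179 with Vps51. Msmo1, Hsd17b7, Sc5d and Dhcr7, which act on methyl groups, the keto group and double bonds of the sterol ring, were called in neither genotype, with differences of -0.18 to 0.11 in Ado KO cells and -0.16 to -0.03 in control cells.

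Of the 8 fatty acid genes, 3 of the 4 desaturase genes (Scd2, Scd1 and Fads1) fell in both genotypes and the remaining one, Fads2, was not called. Acaca fell in control cells, and Acly, Fasn and Elovl6 were not called. Scd2, a stearoyl-CoA desaturase that makes monounsaturated fatty acids, lies on chromosome 19 at 44293674 to 44306864, plus strand. It had 8.27, 8.35, 8.21 and 8.21 log2 CPM at 6 h in Ado KO libraries, against 8.99, 9.01, 8.62 and 8.66 untreated. Control libraries had 8.16, 8.16, 8.33 and 8.51 log2 CPM at 6 h, against 8.93, 9.03, 8.92 and 8.82 untreated. All 8 libraries at 6 h lay below all 8 untreated ones. Scd2 fell by 0.56 ± 0.08 in Ado KO cells (SE; limma adjusted p = 1.5e-05) and by 0.64 ± 0.08 in control cells (SE; limma adjusted p = 1.0e-06), the smallest adjusted p of the 32 genes in each genotype.

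Scd1, the related desaturase gene on chromosome 19 at 44394455 to 44407879, minus strand, had 5.93, 5.72, 5.85 and 5.82 log2 CPM at 6 h in Ado KO libraries, against 6.22, 6.22, 6.22 and 6.11 untreated. In control libraries it had 5.91, 5.84, 5.64 and 5.98 log2 CPM at 6 h, against 6.11, 6.19, 6.09 and 6.16 untreated. No library at 6 h reached an untreated one. The difference of Scd1 was -0.36 ± 0.08 in Ado KO cells (SE; limma adjusted p = 0.00346) and -0.29 ± 0.08 in control cells (SE; limma adjusted p = 0.012), and without 6 h control library 2-1 it was -0.23 in control cells and no longer called. Fads1, the desaturase gene of polyunsaturated fatty acids on chromosome 19 at 10182888 to 10196877, plus strand, had 6.64, 6.45, 6.42 and 6.47 log2 CPM at 6 h in Ado KO libraries, against 6.82, 6.92, 6.94 and 6.78 untreated. Control libraries had 6.44, 6.59, 6.41 and 6.69 log2 CPM at 6 h, against 6.84, 6.93, 6.91 and 6.80 untreated. Here too the 8 libraries at 6 h lay below the 8 untreated ones, with differences of -0.37 ± 0.08 in Ado KO cells (SE; limma adjusted p = 0.00119) and -0.34 ± 0.08 in control cells (SE; limma adjusted p = 0.00199). Fads2, which works in the same route, was low at 1.16 to 3.06 log2 CPM and differed by 0.10 ± 0.31 and 0.26 ± 0.31 in Ado KO and control cells (SE).

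Acaca, which commits acetyl-CoA to fatty acids as malonyl-CoA, differed by -0.08 ± 0.10 in Ado KO cells (SE) and fell in control cells by 0.29 ± 0.10 (SE; limma adjusted p = 0.0366). Without untreated control library 1-1, 1-2 or 2-2, or 6 h control library 1-2, 2-1 or 2-2, the Acaca difference was -0.29 to -0.22 and not called. Fasn, the fatty acid synthase gene, differed by -0.11 ± 0.08 in Ado KO cells (SE; limma adjusted p = 0.549) and by -0.18 ± 0.08 in control cells (SE; limma adjusted p = 0.111). Control guide 1 gave -0.37 for Fasn and control guide 2 gave 0.00. Acly, which makes cytosolic acetyl-CoA from citrate, and Elovl6, which lengthens palmitate, were not called. Elovl6 differed by -0.19 ± 0.15 in Ado KO cells and 0.11 ± 0.15 in control cells, and Acly by 0.05 ± 0.07 in control cells (SE).

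**Figure D3:**
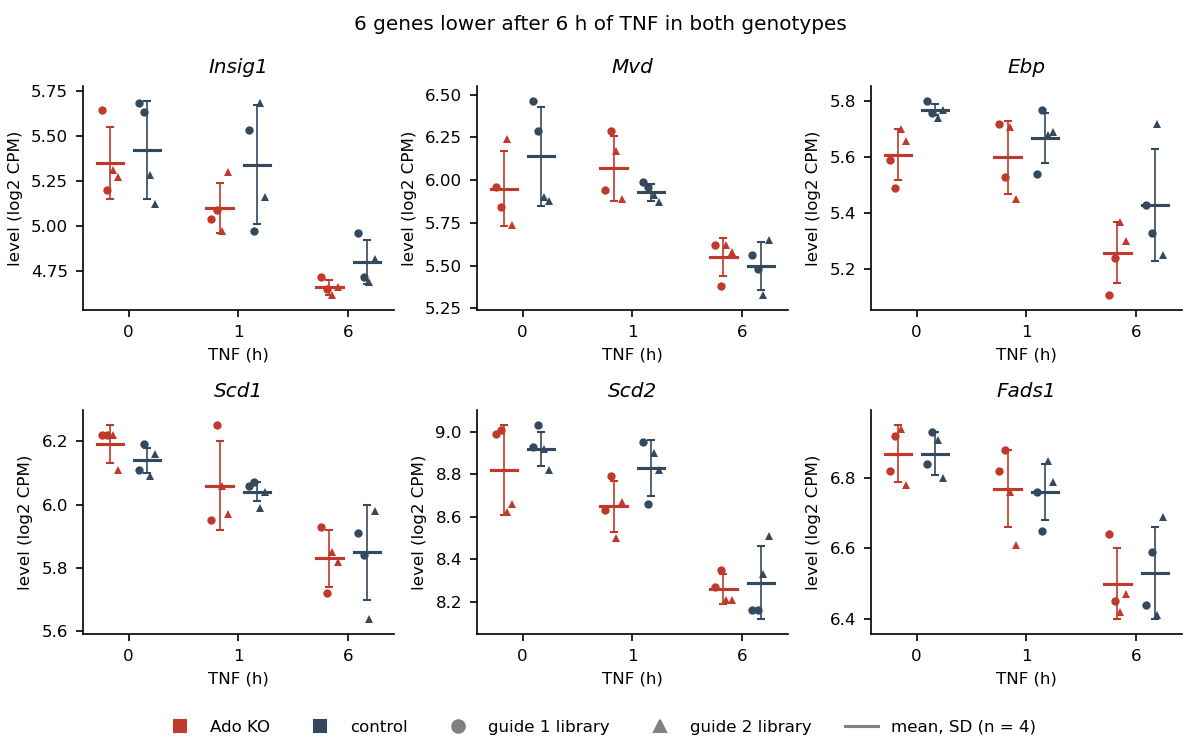
Levels (log2 CPM) of the 6 genes called lower at 6 h in both genotypes, against hours of TNF, in Ado KO cells (red, left of each pair) and control cells (blue). Points are libraries (circles guide 1, triangles guide 2), lines the mean with its SD over 4 libraries. In each genotype the 4 libraries at 6 h lie below the 4 untreated ones for all 6 genes; Scd2 averaged 8.26 at 6 h against 8.82 untreated in Ado KO cells.

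Counted over the 32 genes, 10 had all 4 Ado KO libraries at 6 h below all 4 untreated ones, where 7.15% of all genes did, and 13 did in control cells, where 11.5% of all genes did. With both genotypes pooled, 8 libraries against 8, this held for Insig1, Mvd, Scd1, Scd2 and Fads1, and for 1.7% of all genes. By guide population, 18 of the 32, or 56.2%, were lower at 6 h in all 4 populations, against 24.1% of all genes. Idi1 and Fads2 were lower in none. The median member differed by -0.18 and -0.17 in the populations of Ado guide 1 and guide 2, and by -0.26 and -0.20 in those of control guide 1 and guide 2, where the medians of all genes were -0.05, -0.04, -0.09 and -0.07.

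The populations did not carry the result alike. For Mvd, control guide 1 gave -0.86 and control guide 2 gave -0.41, while both Ado guides were near -0.40. Fdft1 gave -0.65 and -0.34, and Insig1 -0.81 and -0.44, for control guides 1 and 2. Untreated libraries of control guide 1 summed to 2875 and 2983 CPM over the 32 genes, the highest of the untreated libraries, against 2598 and 2575 CPM in those of control guide 2. Without the guide 1 population, 1 member (Scd2) was called in control cells at 6 h. Without guide 2, 9 were called there, of which Fasn was not called with all libraries. In Ado KO cells Fads1 and Scd2 stayed called without guide 1, and Scd2 without guide 2. Each such fit has 2 libraries a group for that genotype. Of all genes, 190 were called lower in control cells without guide 1 and 812 without guide 2, against 1365 with all libraries. In Ado KO cells the all-gene numbers were 67 without guide 1 and 92 without guide 2, against 268. The fall in member calls thus came with a fall over all genes.

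Summed over the 32 genes, levels at 6 h were 2191 to 2228 CPM in Ado KO libraries, against 2472 to 2657 CPM in untreated Ado KO libraries. Control libraries held 2205 to 2371 CPM at 6 h, against 2575 to 2983 CPM untreated. Neither genotype had overlap, and Fasn and Scd2, the most abundant members by tags, weigh most in these sums. Several other quantities moved at 6 h too. Small non-coding RNAs made up 0.505% to 0.598% of the total in Ado KO libraries at 6 h, against 0.111% to 0.152% untreated, and 0.741% to 1.22% in control libraries at 6 h, against 0.111% to 0.129% untreated. Mitochondrial transcripts took 2.36% to 2.62% in Ado KO libraries at 6 h, against 2.05% to 2.40% untreated, and 2.88% to 3.27% in control libraries at 6 h, against 1.97% to 2.50% untreated. The 5 fibroblast markers of 8 that were kept summed to 59.8 to 68.9 CPM in Ado KO libraries at 6 h, against 75.4 to 99.9 CPM untreated, and to 41.4 to 70.3 CPM in control libraries at 6 h, against 56.7 to 97.8 CPM untreated. Of these 5, 1 was called lower in Ado KO cells and 2 in control cells, and their differences ranged from -1.54 to 0.17 and from -1.48 to 0.21. The 2 endothelial markers of 6 that were kept summed to 2.56 to 4.12 CPM in Ado KO libraries at 6 h, against 1.62 to 4.85 CPM untreated, and to 0.614 to 2.38 CPM in control libraries at 6 h, against 2.63 to 4.52 CPM untreated. None of the endothelial pair was called in Ado KO cells and 1 was called lower in control cells. The part of these quantities in the result was not tested. In a further fit 2681 genes were left out by name and the rest was quantile normalised again. These were small and other structural RNA, ribosomal protein, histone and mitochondrial genes, and genes with Gm or Rik names. In that fit 8 members were called lower in Ado KO cells and 9 in control cells, where Idi1 was called higher. Of the 10591 genes in that fit, 208 were called lower in Ado KO cells and 724 in control cells.

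**Figure D4:**
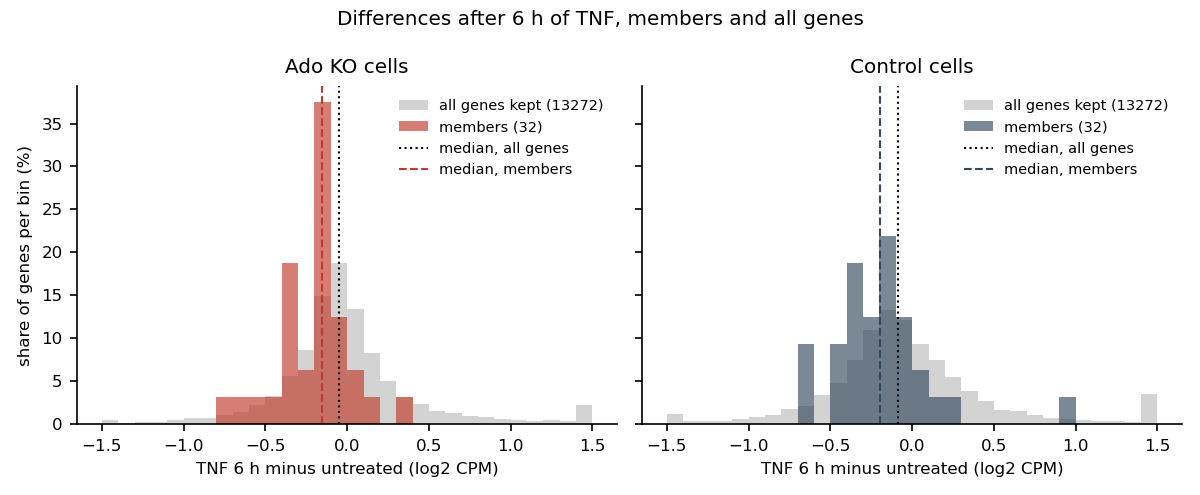
Share of genes (percent, vertical axis) by difference between 6 h of TNF and untreated (log2 CPM, bins of 0.1, outer bins holding all beyond) for the 32 members (coloured) and the 13272 genes kept (grey), in Ado KO cells (left) and control cells (right). Dotted and dashed lines mark the medians of all genes and of the members. The members' medians of -0.16 in Ado KO cells and -0.20 in control cells lie left of those of all genes.

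At 1 h of TNF no member was called in either genotype, where 0.256% of all genes were called in Ado KO cells, 0.392% in control cells and 0.625% for the mean of both. At an unadjusted p under 0.05 there was 1 member higher and none lower in Ado KO cells, and 1 higher and 2 lower in control cells. Of all 13272 genes, 500 were higher and 463 lower at that level in Ado KO cells, and 1032 higher and 844 lower in control cells. Hmgcs1, the member that was higher in control cells at that level, split by guide. It had 6.08 and 6.29 log2 CPM at 1 h in control guide 1 libraries and 5.52 and 5.45 log2 CPM in control guide 2 libraries, against 5.41 to 5.51 log2 CPM untreated. Its difference was 0.37 ± 0.14 in control cells (SE; limma adjusted p = 0.221) and -0.13 ± 0.14 in Ado KO cells (SE; limma adjusted p = 0.896). Without control guide 2 the control difference was 0.72 and was called (limma adjusted p = 0.0242).

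Some libraries at 1 h stood apart for single genes. Srebf1 was at 3.50 log2 CPM in Ado KO library 1-2 at 1 h and at 4.99 to 5.40 in the other 3, and at 4.56 in control library 1-2 and 5.41 to 5.48 in the other 3. Idi1 was at 2.03 and 3.12 log2 CPM in the same libraries, the lowest of each group. Srebf1 tags at the end of its transcript overlap Rai1 on the opposite strand by 109 bases.

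Between 6 h and 1 h of TNF, 6 members were lower in Ado KO cells, where 3.72% of all genes were, and 4 in control cells, where 2.86% were; none was higher. Idi1 had the highest difference in Ado KO cells, 1.01 ± 0.34 (SE; limma adjusted p = 0.0695), and was called higher there without 1 h library 1-1 (1.20; limma adjusted p = 0.0467) or 2-2 (1.40; limma adjusted p = 0.00465). The 6 in Ado KO cells were Insig1 (-0.44), Pmvk (-0.46), Mvd (-0.52), Ebp (-0.35), Scd2 (-0.39) and Fads1 (-0.27). The 4 in control cells were Insig1 (-0.54), Hmgcs1 (-0.51), Mvd (-0.43) and Scd2 (-0.54). These share their 6 h libraries with the comparison against untreated cells and are not separate evidence. Insig1, Mvd and Scd2 were lower at 6 h against both untreated and 1 h libraries in both genotypes. In Ado KO cells the Insig1 call against 1 h ended with any 1 of its 8 libraries left out (-0.48 to -0.37), that of Pmvk with 5 of 8 (1 h 1-1, 1-2 and 2-1, 6 h 1-2 and 2-2), that of Ebp with 4 (1 h 1-1 and 2-1, 6 h 1-1 and 1-2) and that of Fads1 with 6 (all but 1 h 2-2 and 6 h 1-1). In control cells the Insig1 call ended without 1 h library 2-1 (-0.42), that of Mvd without 6 h library 2-1 (-0.38) and that of Hmgcs1 without 1 h library 1-1 or 1-2 or 6 h library 2-1 (-0.44, -0.36 and -0.43). Mean levels of Scd2 over time were 8.82 (no TNF), 8.65 (1 h) and 8.26 log2 CPM (6 h) in Ado KO cells, and 8.92, 8.83 and 8.29 log2 CPM in control cells.

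Whether the genotypes differed in their response was tested with the interaction, Ado KO difference minus control difference. At 6 h no member was called, where 0.347% of all genes were, and the median of the members was 0.02 beside 0.03 for all genes. At 1 h limma called no member and 0% of all genes, with 1 member higher and 2 lower at an unadjusted p under 0.05, where 628 of the 13272 genes were higher and 676 lower. The lowest 6 h value was that of Nsdhl, -0.72 ± 0.29 (SE; 95% interval -1.31 to -0.13; limma adjusted p = 0.623), and the highest that of Pmvk, 0.35 ± 0.19 (SE; 95% interval -0.05 to 0.74; limma adjusted p = 0.788). For Scd2 the interval was -0.16 to 0.32, for Fads1 -0.25 to 0.19 and for Insig1 -0.45 to 0.32. These tests do not show that the genotypes responded alike.

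Between Ado KO and control cells, Acly and Fdps were lower in Ado KO cells for the mean of the 3 treatments, where 1.38% of all genes were called lower, and none was higher. In untreated cells no member was called, against 0.249% of all genes. At 1 h Acly was called lower, against 0.535% of all genes, and at 6 h no member was called, against 1.02%. Acly had 7.14, 7.13, 6.87 and 6.82 log2 CPM in untreated Ado KO libraries and 7.09, 7.17, 7.18 and 7.21 in untreated control libraries, which overlap. At 1 h it had 6.94, 6.93, 6.99 and 6.95 log2 CPM in Ado KO libraries and 7.33, 7.17, 7.22 and 7.26 in control libraries, without overlap. At 6 h the Ado KO libraries held 6.98, 6.97, 7.03 and 6.96 log2 CPM and the control libraries 7.13, 7.37, 7.15 and 7.23, again without overlap. The mean difference of Acly was -0.23 ± 0.05 (SE; limma adjusted p = 0.00345). The 1 h difference of -0.29 ± 0.08 (SE; limma adjusted p = 0.0497) lay just inside the threshold, and leaving out control library 1-1, 2-1 or 2-2 or Ado KO library 1-1, 1-2 or 2-1 ended that call at -0.31 to -0.26.

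Fdps averaged 6.74 ± 0.06 log2 CPM in untreated Ado KO cells and 7.06 ± 0.14 in untreated control cells (SD, n = 4), without overlap. At 1 h it averaged 6.68 ± 0.19 in Ado KO cells and 6.94 ± 0.09 in control cells, and at 6 h 6.64 ± 0.11 and 6.74 ± 0.09 (SD, n = 4). The mean difference of Fdps was -0.23 ± 0.05 (SE; limma adjusted p = 0.015). Over all 6 libraries of a population Fdps averaged 6.77 and 6.60 log2 CPM with Ado guides 1 and 2, and 7.00 and 6.83 with control guides 1 and 2, so the closest pair of populations differed less than the guides of 1 genotype did. Acly averaged 7.01 and 6.94 log2 CPM with the Ado guides and 7.21 and 7.21 with the control guides. Without control guide 1 Fdps was not called for the mean, and without Ado guide 2 neither gene was. The 2 libraries of each guide population and treatment were also averaged, and treatment and genotype were fitted without a guide block. In that fit Acly was called (-0.23 ± 0.05, SE, limma adjusted p = 0.0366) and Fdps was not (-0.23 ± 0.07, SE, limma adjusted p = 0.106). The 3 treatments of a guide counted as separate there, so it is not a test between the 4 guide populations. The main fit is no such test either, since at a guide correlation of 0.0485 it treats libraries almost as separate. Its p-values for Acly and Fdps carry that limit. Lss and Nsdhl had larger mean differences, -0.27 ± 0.11 and -0.36 ± 0.14 (SE), and were not called (limma adjusted p = 0.179 and 0.161). At 6 h Nsdhl averaged 2.35 ± 0.28 log2 CPM in Ado KO cells and 3.16 ± 0.30 in control cells (SD, n = 4), a difference of -0.81 ± 0.22 (SE; limma adjusted p = 0.0617).

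**Figure D5:**
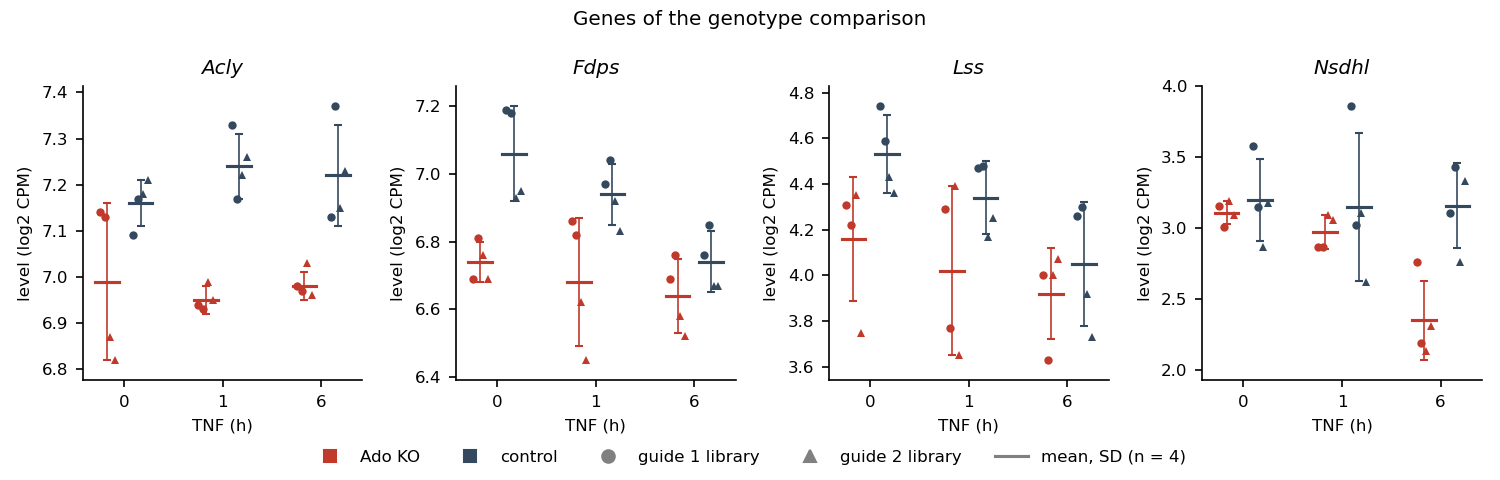
Levels (log2 CPM) of Acly, Fdps, Lss and Nsdhl against hours of TNF in Ado KO cells (red, left of each pair) and control cells (blue). Points are libraries (circles guide 1, triangles guide 2), lines the mean with its SD over 4 libraries. Acly does not overlap between genotypes at 1 h and 6 h; Nsdhl averaged 2.35 in Ado KO cells and 3.16 in control cells at 6 h.

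Genes around the pathway were read in 6 further lists at 6 h, against the shares of all genes given above: 2.02% lower and 4.42% higher in Ado KO cells, and 10.3% lower and 7.74% higher in control cells. For lists of this size these shares amount to few genes, so a count of none in Ado KO cells, or of 1 to 3 in control cells, does not set a list apart. Among genes for SREBP processing and sterol-regulated protein degradation, none was called in Ado KO cells, while Aup1 (-0.33) and the SREBP protease gene Mbtps1 (-0.24) were lower in control cells. Of 14 genes of the isoprenoid branch, none was called in Ado KO cells and 2 were higher in control cells, Nus1 (0.34), of dolichol synthesis, and Rabggtb (0.51), of Rab prenylation. Among 15 kept genes of sterol transport and LXR targets, none was called in Ado KO cells and 5 were lower in control cells: Gramd1b (-0.90), Lpcat3 (-0.37), Npc2 (-0.25), Scarb1 (-0.27) and Stard3 (-0.44). Fatty acid supply and elongation had 18 kept genes, of which none was called in Ado KO cells and 3 were lower in control cells: Elovl1 (-0.30), the citrate carrier gene Slc25a1 (-0.31) and Tecr (-0.34). Of 12 kept glycerolipid genes none was called in Ado KO cells and Agpat2 (-0.61) was lower in control cells.

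Fatty acid oxidation, the reverse process, had 13 kept genes. Acads, a short-chain acyl-CoA dehydrogenase gene, was the single gene of these 6 surrounding lists called in both genotypes. It averaged 6.49 log2 CPM at 6 h against 6.82 untreated in Ado KO cells, and 6.55 at 6 h against 6.95 untreated in control cells, with differences of -0.33 ± 0.09 and -0.40 ± 0.09 (SE; limma adjusted p = 0.0226 and 0.00266). Ppard, a nuclear receptor gene, rose by 1.15 ± 0.21 in Ado KO cells (SE; limma adjusted p = 2.1e-04), and its difference in control cells was 0.56 ± 0.21 (SE; limma adjusted p = 0.0585). Cpt2 fell by 0.46 ± 0.13 in control cells (SE; limma adjusted p = 0.0173). The median of the oxidation list was 0.00 in Ado KO cells and -0.26 in control cells, beside -0.16 and -0.20 for the 32 members.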

How the data were processed

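The 24 libraries were made by a 3' tag method (QuantSeq 3' mRNA), and the deposited table holds normalised log2 CPM values for 15390 genes. Per the submitters' processing notes the tools were FastQC, cutadapt 1.7, HISAT2, featureCounts from Subread and limma, with build GRCm38 (mm10); order, settings and strand use are not given in the sources used here. From the deposited log2 values, all libraries share 1 lowest and 1 highest value and unlogged sums of 998900 to 999014, as after scaling libraries to 1 distribution, so a shift common to most genes would not show.

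Libraries were grouped by labels; replicate numbers follow the titles, and for control guide 2 at 1 h titles and column names number the replicates oppositely. Genes at 0 or more in at least 4 libraries (13272) were fitted with limma 3.58.1 (R 4.3.3, statmod 1.5.0): 6 group means, guide population as a random block (correlation 0.0485), variance trend, Benjamini-Hochberg adjustment over all 13272 genes, threshold 0.05, 14 contrasts, intervals at 95%. Depth of 4260000 to 6630000 tags was estimated from the steps between low values. Transcript ends were compared with blastn 2.17.0. The fit was tested on simulated data. The 32 genes and all other lists were chosen with earlier results of these data known. Every member was accounted for; library values are printed for Srebf1, Srebf2 (as means), Insig1 and, per role, at most 4 members called at 6 h or between genotypes with 1 sign across guide populations, by smallest adjusted p. Idi1, Hmgcs1 at 1 h and genes of surrounding lists called in control cells alone were added after their values were seen. A result of 1 surrounding list is not reported here. Alternatives changed the guide term, variance prior, filter, pseudocount, scaling, the genes left out by name (structural RNA and other classes), guide populations and single libraries.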

Additional observations from a re-analysis of the deposited data

Results flagged for a closer look

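In 14 of 192 groups of 4 libraries, 1 library lay apart from the other 3 by Dixon's 95% criterion, which chance alone meets in about 1 group in 20. At 6 h in Ado KO cells, Acat2 was 4.93 log2 CPM in library 2-1 against 5.18 to 5.21 in the others, Mvd 5.38 in library 1-2 against 5.58 to 5.62, and Hmgcs1 5.68 in library 1-2 against 5.29. In the same group Cyp51 was 6.23 and Hsd17b7 2.76 in library 2-2, against 6.42 to 6.46 and 3.14 to 3.17, and Sc5d was 5.28 in library 1-2 against 5.51 to 5.54. At 1 h in Ado KO cells, Scap was 6.02 in library 1-1 against 5.90 to 5.91, and Fasn 9.48 in library 1-2 against 9.29 to 9.30. In untreated Ado KO cells Scd1 was 6.11 in library 2-2 against 6.22 in the others.

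In control cells at 6 h, Insig2 was 2.52 log2 CPM in library 1-1 against 3.06 to 3.14, and Mvk 4.72 in library 2-1 against 4.93 to 4.95. At 1 h, library 1-2 held Srebf1 at 4.56 against 5.41 to 5.48 and Dhcr7 at 2.99 against 3.62 to 3.68; mitochondrial transcripts took 3.58% of that library, the highest share of the 24. In untreated control cells Sc5d was 5.57 in library 1-1 against 5.29 to 5.31.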

How the results depend on the processing

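None of the 52 called member results changed direction in 1195 alternative values. Cyp51, not called between genotypes with all libraries, depended on the control guide for the mean of 3 treatments. It was called higher in Ado KO cells without control guide 1 (0.19, limma adjusted p = 0.0499) and lower without control guide 2. Its population means were 6.69 and 6.55 log2 CPM with Ado guides 1 and 2, and 6.83 and 6.43 with control guides 1 and 2. With single libraries left out, members called at 6 h against untreated numbered 4 to 8 in Ado KO cells (4 without untreated library 2-1, 5 without 6 h library 1-2), 8 to 12 in control cells (8 without untreated library 1-1 or 1-2 or 6 h library 2-2, 9 without 6 h library 2-1) and 11 to 19 for the mean of both; at 1 h they were 0 to 0 in each. Against 1 h they numbered 2 to 8 in Ado KO and 3 to 5 in control cells. Between genotypes they were 0 to 0 untreated, 0 to 2 at 1 h, 0 to 1 at 6 h and 2 to 2 for the mean of 3 treatments, and 0 to 0 for both interactions.

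Without a variance trend, 9 members were called in control cells at 6 h and 0 between genotypes at 1 h. A pseudocount of 1, and leaving out structural RNA and the other classes named above, also gave 0 there. Guide populations as fixed terms gave 1, 3 and 2 members between genotypes untreated, at 1 h and at 6 h. Means of each guide and treatment, fitted without a guide block, gave 1 for the mean. Over all genes, the fixed guide terms called 72, 275 and 160 lower between genotypes untreated, at 1 h and at 6 h. With guide as a random block these were 24, 71 and 79. Without a variance trend 1121 of all genes were called lower in control cells at 6 h, against 1365. Without control guide 1, the counts of members were 1 in control cells at 6 h, 2 against 1 h, 9 for the 6 h mean and 0 between genotypes at 1 h. Without control guide 2 they were 1 in control cells at 1 h, 9 at 6 h, and 1, 2, 1 and 8 between genotypes untreated, at 1 h, at 6 h and for the mean. Without Ado guide 1 they were 2 in Ado KO cells at 6 h, 0 against 1 h, 10 for the 6 h mean and 0 between genotypes at 1 h; without Ado guide 2 they were 1 in Ado KO cells at 6 h, and 0 between genotypes at 1 h and for the mean. Leaving out a guide leaves 2 libraries a group for that genotype. Calls over all genes moved too. Without control guide 2, 1058 of the 13272 genes were called higher and 741 lower between genotypes for the mean of 3 treatments. With all libraries these were 237 and 183, and without Ado guide 2 they were 81 and 85.

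The replicate numbers were not used as pairs. Deviations of libraries with the same guide and number correlated at -0.178 to 0.105 (24 pairs, median 0.024). Those with the same guide and the other number correlated at -0.111 to 0.177 (24 pairs, median 0.068). Deviations were taken from means of 4 libraries, so these correlations alone do not show that libraries were unpaired. A replicate block gave 9 members in Ado KO cells and 13 in control cells at 6 h, 17 for the mean, 6 and 5 against 1 h, and 0 at 1 h and for the interactions. Genes with few tags (Fads2 at 11 to 37, Nsdhl at 22 to 73 per library) are measured least precisely.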
